A study of Danio rerio with 3 samples.

Results

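The transcripts described here encode enzymes that make or break down neurotransmitters in zebrafish larvae. They were listed by gene name: th, th2, tph1a, tph1b, tph2, ddc, dbh, gad1b, gad2 and ache. All 10 were present, among 19814 named mRNA genes and 21098 entries in all. The first 9 encode synthetic enzymes, whereas ache encodes acetylcholinesterase, which breaks its transmitter down. Wild-type Tuebingen larvae were kept from 3 to 4 hpf until 6 dpf in BDE47 at 5 μg/L (low dose) or 500 μg/L (high dose), or in DMSO vehicle alone. BDE47 is 2,2′,4,4′-tetrabromodiphenyl ether, a brominated flame retardant, and all 3 groups carried 0.1% DMSO. RNA came from whole larvae, pooled at approximately 60 per treatment, and 1 library was sequenced per group. With no replicate of any group, no difference below had a replicate check.

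Catecholamines are built from tyrosine. Tyrosine hydroxylase makes L-DOPA, dopa decarboxylase turns it into dopamine, and dopamine beta hydroxylase converts dopamine into noradrenaline. Serotonin is built from tryptophan by tryptophan hydroxylase and the same decarboxylase, and the pineal gland processes serotonin further into melatonin. Both hydroxylases depend on tetrahydrobiopterin, a pterin cofactor. GABA, the main inhibitory transmitter, is formed from glutamate by glutamate decarboxylase. Acetylcholine acts at the neuromuscular junction, where acetylcholinesterase ends its signal.

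Values are the authors' TMM-normalized counts, that is, reads per gene model after a scaling step that makes libraries comparable. Dividing by the smallest value of a library gave whole numbers for 100% of its values, within 0.01, and these were taken as reads. Reads on all entries numbered 41474296 in DMSO vehicle, 30463582 at low dose and 27004647 at high dose, of which the 10 transcripts took 25744, 21535 and 17860. A fold change (FC) is the normalized count at a BDE47 concentration over that in DMSO vehicle. Its 95% interval is exact (Clopper-Pearson, on the share of a gene's reads in each library) and covers counting error only, not the spread between larvae or pools. A gene was called changed at an FC of at least 2 or at most 0.5 if either library held at least 10 normalized counts, and "rose" and "fell" are kept for such genes. RNA was taken from whole larvae, so fewer cells of a type and less RNA per cell cannot be told apart.

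Of the 3 transcripts annotated as tryptophan hydroxylases, tph1b rose at high dose. In mammals the TPH1 enzyme serves the gut and the pineal gland. The transcript tph1b had 167 normalized counts in DMSO vehicle, 173 at low dose and 495 at high dose, from 211, 158 and 396 reads. The high-dose library stood apart from the other two, whose ratio had an interval that included 1. The FC of tph1b was 1.04 at low dose (95% interval 0.837 to 1.28) and 2.97 at high dose (2.50 to 3.52). At high dose 2.18% of the 13543 genes that reached 100 normalized counts had a larger FC, a rank not matched for depth. Under edgeR's exact test on the reads tph1b kept its call if a biological coefficient of variation of 0.2 was assumed and lost it at 0.4.

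Its paralog tph1a had 197 normalized counts in DMSO vehicle, 238 at low dose and 326 at high dose. The transcript tph2, which encodes the enzyme of serotonergic raphe neurons, had 329, 401 and 555 normalized counts in the same order. Both were ordered by concentration, and neither reached an FC of 2. At low dose the FC was 1.21 for tph1a (1.00 to 1.46) and 1.22 for tph2 (1.06 to 1.41). At high dose it was 1.66 for tph1a (1.39 to 1.98) and 1.69 for tph2 (1.47 to 1.93).

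The balance between the hydroxylase transcripts was compared through ratios of reads within a library, which do not depend on how the libraries were scaled. Intervals of such ratios are conditional exact ones, or log-normal ones where reads were many, and cover counting error only. The gene pairs, here and below, were not set in the plan, and no interval takes account of how a pair was picked. The reads of tph1b over those of tph1a stood at 1.52 at high dose, against 0.847 in DMSO vehicle. Relative to DMSO vehicle that ratio was 0.855 times as large at low dose (0.643 to 1.14) and 1.79 times as large at high dose (1.40 to 2.30), and that of tph1b to tph2 was 1.76 times as large at high dose (1.41 to 2.19). The ratio of tph2 to tph1a was 1.70 at high dose and 1.67 in DMSO vehicle, a relative ratio of 1.02 (0.813 to 1.28). Thus tph1b differed from both other hydroxylase transcripts at high dose beyond counting error, while tph1a and tph2 had similar fold changes, with an interval that allows a relative difference of up to 1.28 times. How reads shared by paralogs were assigned was not given in the sources used here, so the split between tph1a and tph1b, and likewise between th and th2, is uncertain to that extent.

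**Figure D1:**
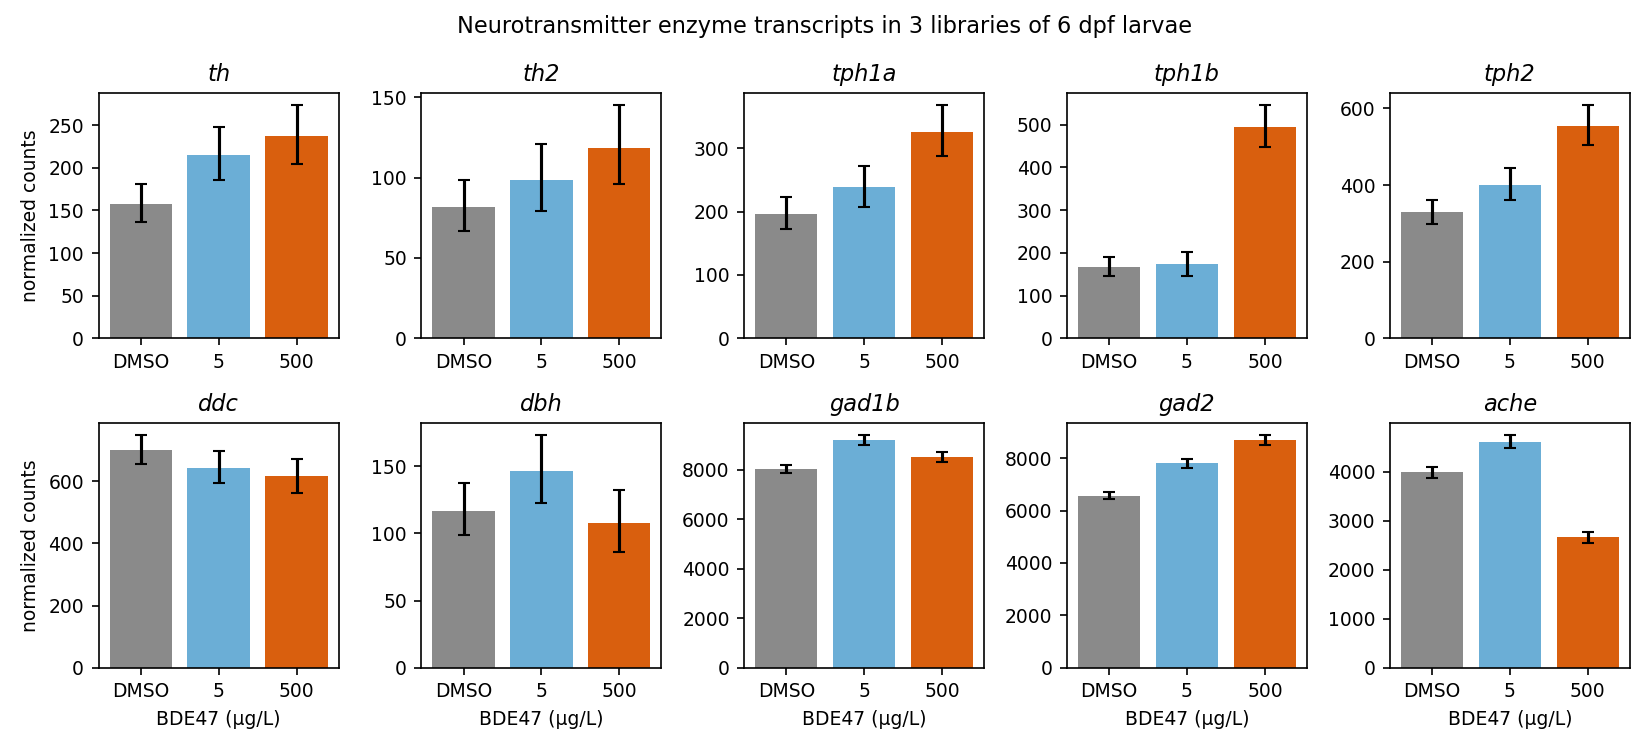
Normalized counts (y axis, each panel from 0 on its own scale) of the 10 enzyme transcripts in DMSO vehicle, low dose (5 μg/L) and high dose (500 μg/L); bars are the single library of each group and error bars are exact 95% Poisson intervals for counting error. The bar of tph1b stands at 495 at high dose, against 167 in DMSO vehicle, whereas ache is lowest at high dose with 2659.6.

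Among the transcripts annotated as catecholamine enzymes, th and th2 were higher in both BDE47 libraries than in DMSO vehicle. None of the 4 transcripts of this group reached the FC threshold. The transcript th encodes tyrosine hydroxylase, the rate-limiting enzyme of catecholamine synthesis, and had 158 normalized counts in DMSO vehicle, 215 at low dose and 237 at high dose. The FC of th was 1.36 at low dose (1.11 to 1.67) and 1.50 at high dose (1.22 to 1.84). At low dose 2.89% of the 13290 genes that reached 100 normalized counts had a larger FC than th. At high dose, where fold changes in general were more spread, the share was 16.5%. These ranks were not matched for depth, and th rested on 200 reads in DMSO vehicle and 197 at low dose. Its paralog th2, found in hypothalamic neurons of zebrafish, had 81.4, 98.4 and 119 normalized counts in the order of concentration. With 103, 90 and 95 reads it was among the least counted of the 10. The FC of th2 was 1.21 at low dose (0.901 to 1.62), an interval that included 1, and 1.46 at high dose (1.09 to 1.95). The ratio of th to th2 reads was 2.00 at high dose and 1.94 in DMSO vehicle, a relative ratio of 1.03 (0.721 to 1.47).

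Neither enzyme downstream of th had an FC above 1 at high dose. The transcript ddc, for the decarboxylase shared by dopamine and serotonin synthesis, had 702 normalized counts in DMSO vehicle, 644 at low dose and 616 at high dose. Its FC was 0.917 at low dose (0.825 to 1.02) and 0.877 at high dose (0.784 to 0.981). It was the only 1 of the 10 transcripts whose value was lower at each higher concentration. The reads of th over those of ddc came to 0.385 at high dose and 0.225 in DMSO vehicle, 1.71 times as large (1.35 to 2.16). For dbh, the enzyme of noradrenergic neurons, normalized counts were 117 in DMSO vehicle, 146 at low dose and 107 at high dose, from 148, 134 and 86 reads. Its FC was 1.25 at low dose (0.984 to 1.59) and 0.918 at high dose (0.696 to 1.21), so that no difference from DMSO vehicle was detectable at this depth. Between the BDE47 libraries, dbh at high dose was 0.733 times its value at low dose (0.553 to 0.969). Relative to DMSO vehicle, the ratio of dbh to th reads was 0.919 at low dose (0.669 to 1.26), an interval that included 1. At high dose that relative ratio was 0.612 (0.433 to 0.863).

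The glutamate decarboxylase transcripts gad1b and gad2 were counted most deeply, with 6814 to 10163 reads in each library. The transcript gad2 had 6573 normalized counts in DMSO vehicle, 7795 at low dose and 8685 at high dose. Its FC was 1.19 at low dose (1.15 to 1.22) and 1.32 at high dose (1.28 to 1.36). By contrast, gad1b was highest at low dose, with 8033, 9217 and 8512 normalized counts in the order of concentration. The FC of gad1b was 1.15 at low dose (1.11 to 1.18) and 1.06 at high dose (1.03 to 1.09). The reads of gad2 over those of gad1b came to 1.02 at high dose and 0.818 in DMSO vehicle, 1.25 times as large (1.19 to 1.30), and at low dose the relative ratio was 1.03 (0.990 to 1.08). These intervals are narrow because the reads were many, and they leave the spread between pools of larvae unmeasured. Another glutamate decarboxylase transcript, LOC100329827, matched to gad1a and named after its value was seen, was not among the enzyme transcripts listed above. It was counted thinly, with 159, 91 and 78 reads in the order of concentration. Its FC was 0.792 at low dose (0.605 to 1.03) and 0.775 at high dose (0.584 to 1.02). No difference of gad1a from DMSO vehicle was therefore detectable at this depth.

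Acetylcholinesterase mRNA differed in opposite directions between the concentrations. The transcript ache had 3991 normalized counts in DMSO vehicle, 4613 at low dose and 2659.6 at high dose, from 5050, 4220 and 2129 reads. The FC of ache was 1.16 at low dose (1.11 to 1.20) and 0.666 at high dose (0.633 to 0.701), short of the threshold in both cases. Compared directly, ache at high dose was 0.577 times its value at low dose (0.547 to 0.608), and 4.98% of 13449 genes had a smaller ratio. Against DMSO vehicle, 12.4% of 13543 genes had a smaller FC than ache at high dose. At low dose 19.1% of 13290 genes had a larger one. These ranks were not matched for depth. The transcript for choline acetyltransferase, listed as chat, encodes the enzyme that makes acetylcholine. It had 937, 1061 and 1307 normalized counts in the order of concentration, with an FC of 1.13 at low dose (1.04 to 1.23) and 1.39 at high dose (1.28 to 1.52). The reads of ache over those of chat stood at 2.04 at high dose, against 4.26 in DMSO vehicle, 0.478 times as large (0.434 to 0.527). This ratio joins the fold changes of both genes, and neither alone reached the threshold. At low dose the relative ratio was 1.02 (0.929 to 1.12).

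**Figure D2:**
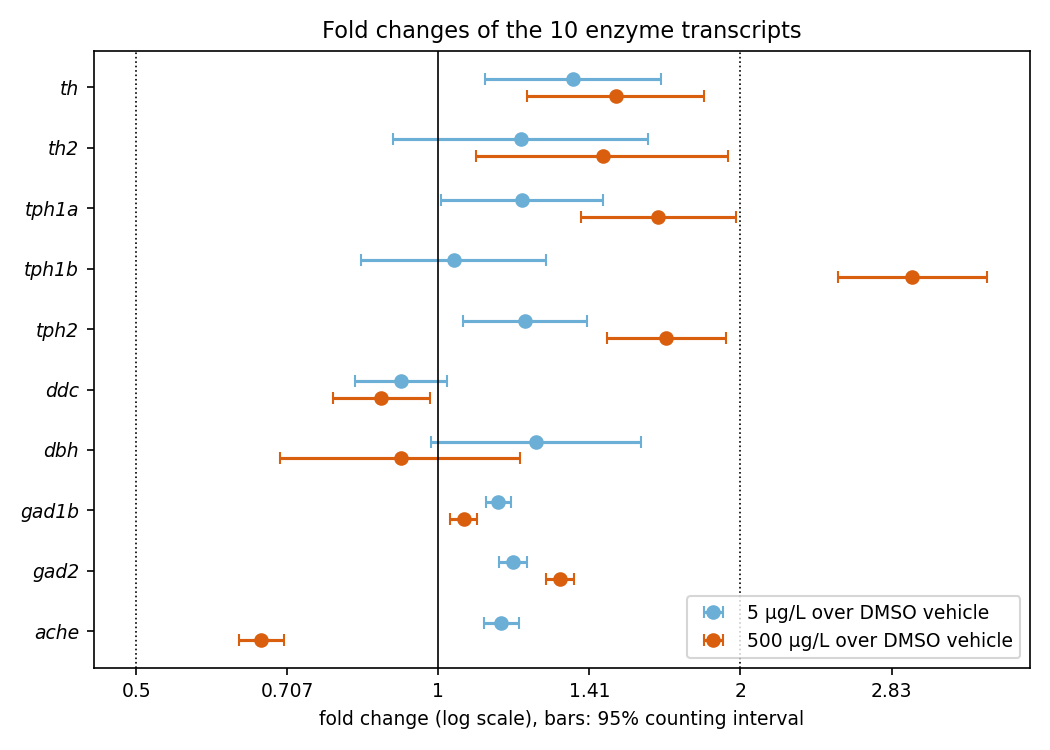
Fold change over DMSO vehicle (x axis, log scale) of each enzyme transcript at low dose (blue) and high dose (orange), with 95% counting intervals; the dotted lines mark 0.5 and 2. Only tph1b at high dose, at 2.97, passes a dotted line, and ache lies at 1.16 at low dose and 0.666 at high dose.

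Read against all genes, the count of changed transcripts was not unusual. At high dose 1 of the 10 was changed, compared with 12.1% of the 17758 genes measured (1 rose, against 7.40%, and 0 fell, against 4.74%), and at low dose 0 of 10, compared with 2.92% of 17670. Comparing high with low dose directly, 1 of 10 was changed, again tph1b, with a ratio of 2.86 (2.38 to 3.47), and the share of all 17707 genes was 11.5%. In that comparison 4 intervals lay wholly above 1 and 3 wholly below, for 29.5% and 28.6% of all genes. The smaller differences leaned upward. An FC above 1 was found for 7 of 10 at high dose, compared with 48.9% of all genes, and for 9 of 10 at low dose, compared with 51.2%. At high dose, 7 of the 10 had an interval wholly above 1, compared with 31.0% of all genes, and 2, ddc and ache, had an interval wholly below 1, compared with 30.6%. At low dose the interval lay wholly above 1 for 6 transcripts, compared with 21.5% of genes, and wholly below 1 for 0, compared with 17.8%. Whether an interval leaves out 1 depends on the reads of a gene, and these shares of all genes were not matched for depth. The comparisons at the 2 doses share the DMSO vehicle library, so both sets of fold changes rest on the same reference values. The median log2 FC of the 10 (pseudocount 1) was 0.47 at high dose, against -0.02 over all genes measured, and 0.26 at low dose, against 0.01. Values of th, th2, tph1a, tph1b, tph2 and gad2 were ordered DMSO vehicle, low dose, high dose from low to high, which is 6 of 10, and 23.4% of 17865 genes had that order. The opposite order was found for 1 of 10, ddc, and for 22.9% of genes. The 10 genes are not replicates of a condition, and they were listed together because of a shared function. Some lists described below also leaned upward at low dose. An FC above 1 was found for 19 of 27 GABA and glutamate genes, 20 of 31 transcription factors of transmitter neurons and 8 of 10 glial markers. Others did not lean so, with 7 of 13 monoamine genes, 5 of 9 neuronal markers and 1 of 6 liver markers above 1.

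**Figure D3:**
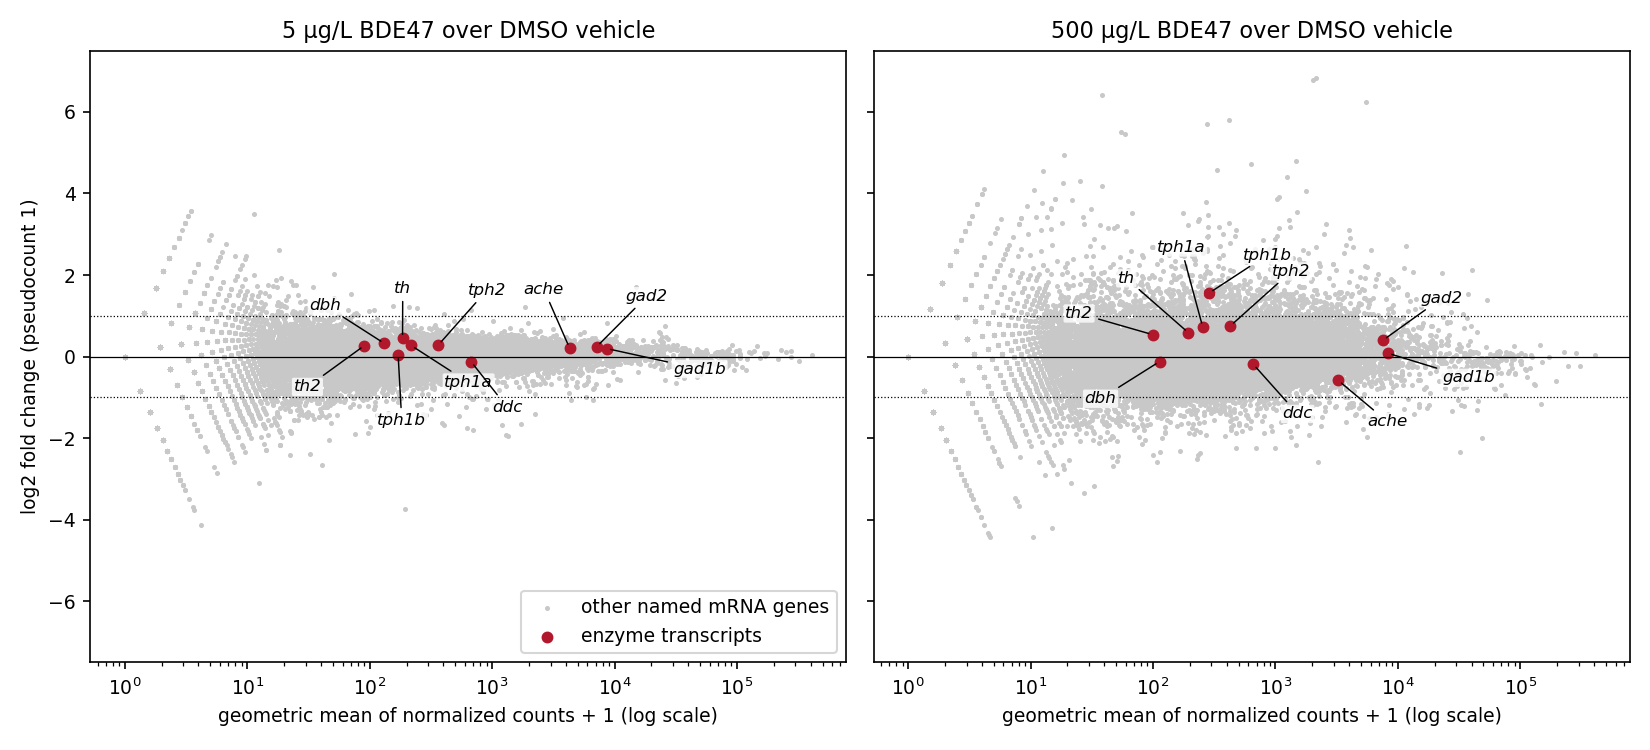
Log2 fold change (y axis, pseudocount 1) against the geometric mean of the normalized counts plus 1 (x axis, log scale) for all named mRNA genes (grey) and the 10 enzyme transcripts (red), at low dose on the left and high dose on the right; the dotted lines mark a 2-fold difference. The red points lie within the grey cloud at both concentrations, with tph1b above the upper line at high dose.

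Of the lists of transmitter-related genes, that of the pterin cofactor held the largest fold changes. The first step of tetrahydrobiopterin synthesis is catalysed by GTP cyclohydrolase, encoded by gch1 and, in zebrafish pigment cells, by gch2. Normalized counts of gch1 were 43.5 in DMSO vehicle, 75.4 at low dose and 149 at high dose, and its FC was 1.74 at low dose (1.20 to 2.52) and 3.42 at high dose (2.46 to 4.80). The values of gch2 were 94.8, 108 and 321 normalized counts in the order of concentration, with an FC of 1.14 at low dose (0.865 to 1.50) and 3.38 at high dose (2.72 to 4.24). Thus 2 of the 7 measured genes of the list rose at high dose, against 7.40% of all genes, and 0 fell, against 4.74%. The next enzymes of the pathway diverged, since pts had an FC of 0.508 (0.398 to 0.645) and spra, for sepiapterin reductase, one of 1.72 (1.28 to 2.32). Of the genes of cofactor recycling, qdprb1 had an FC of 0.931 (0.773 to 1.12), pcbd1 one of 1.01 (0.928 to 1.09) and qdpra, named after its value was seen, one of 1.32 (1.19 to 1.46). The median log2 FC of the list was 0.20 at low dose and 0.40 at high dose. At low dose 7 of 7 lay above 1, against 51.2% of all genes. With no minimum count, which admits qdprb2 with 0 reads at high dose, the median at high dose was 0.20. The reads of gch1 over those of th were 2.28 times as many at high dose as in DMSO vehicle (1.54 to 3.39).

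Melatonin synthesis runs from serotonin through arylalkylamine N-acetyltransferase. The transcript aanat1 rose at high dose, with 92.5 normalized counts in DMSO vehicle, 91.8 at low dose and 232 at high dose and an FC of 2.51 (1.98 to 3.19). The pineal form aanat2 had 136, 125 and 94.9 normalized counts and an FC of 0.698 (0.526 to 0.920) at high dose. Relative to DMSO vehicle, the ratio of aanat1 to aanat2 reads was 3.60 times as large at high dose (2.48 to 5.22). The ratio of tph1b to aanat1 reads was 2.13 at high dose and 1.80 in DMSO vehicle, a relative ratio of 1.18 (0.878 to 1.58), so these 2 transcripts were not separable at this depth. All 3 pineal markers, aanat2 among them, had an FC below 1 at high dose, and exorh, the pineal opsin, fell to 45.0 normalized counts at high dose, against 143 in DMSO vehicle. Their summed normalized counts were 1023 at high dose and 1470.1 in DMSO vehicle. Of 6 genes listed as enteroendocrine markers, 3 were above 1 and 3 below, from 0.504 for pax6b to 1.88 for scg2b. Their sum was 25109 at high dose and 22363 in DMSO vehicle, of which neurod alone made up 7113 and 10978. From which cells of the whole larvae these counts came was not tested. The part of either cell type in the tph1b value was not tested.

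The list of monoamine transport and breakdown also held pnmt, hdc, pah, moxd1 and moxd1l, which are not established transporters or breakdown enzymes of monoamines. Its genes lay on both sides of an FC of 1 at high dose, 6 above and 7 below. Those above 1 were the genes just named and the vesicular transporter slc18a2, and all 7 below 1 were transporter or breakdown genes. Of 13 measured, 1 rose at high dose, against 7.40% of all genes, and 0 fell, against 4.74%. The median log2 FC of the list was -0.08. The gene that rose was moxd1, a monooxygenase related to dbh, with an FC of 2.17 (1.80 to 2.63) and 331 normalized counts at high dose, against 153 in DMSO vehicle. The largest values after it were those of pah, for phenylalanine hydroxylase, at 1.45, and of moxd1l at 1.34. At the low end of those with at least 50 normalized counts were LOC565776, matched to the noradrenaline transporter gene slc6a2, with an FC of 0.612 (0.478 to 0.777), the methyltransferase gene comta at 0.693 (0.557 to 0.858) and the monoamine oxidase gene mao at 0.703 (0.657 to 0.751). Transporters that mark the transmitter cells were looked up after the values were seen. The dopamine transporter slc6a3 had an FC of 0.947 (0.756 to 1.18) at high dose, the serotonin transporter slc6a4a one of 0.902 (0.802 to 1.02) and the vesicular transporter slc18a2 one of 1.32 (1.03 to 1.70). The paralog slc6a4b of the serotonin transporter had an FC of 0.548 at high dose (0.296 to 0.969). It was counted thinly, with 49, 37 and 17 reads in the order of concentration. Relative to DMSO vehicle, th reads over slc6a3 reads were 1.59 times as many at high dose (1.17 to 2.15) and 1.37 times at low dose (1.02 to 1.84). For tph2 over slc6a4a the relative ratios were 1.87 (1.56 to 2.24) and 1.43 (1.19 to 1.72). Such ratios depend on the transporter chosen. None was computed to slc18a2, with its FC of 1.32, or to slc6a4b, with its FC of 0.548.

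**Figure D4:**
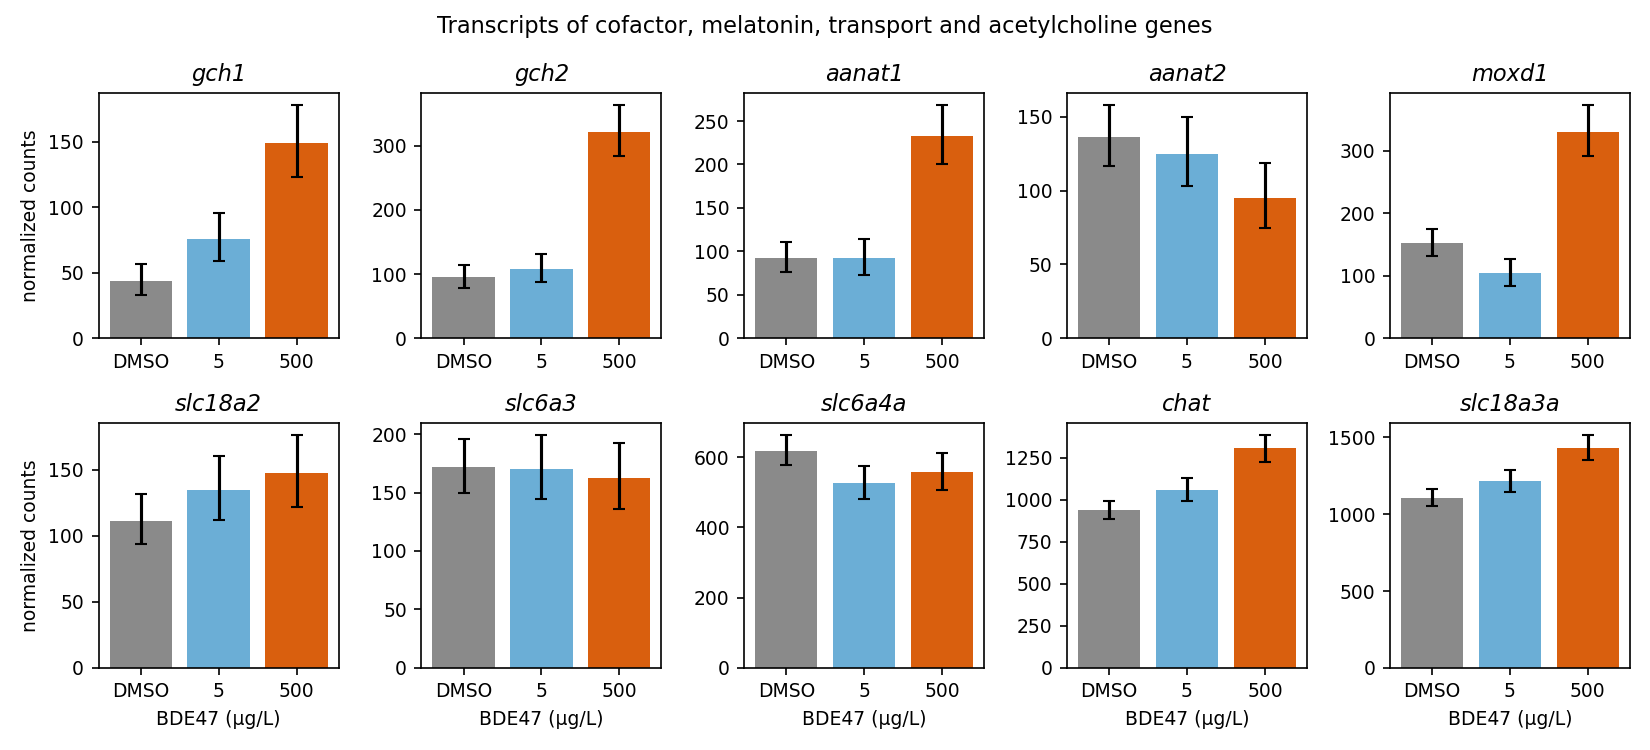
Normalized counts (y axis, each panel from 0 on its own scale) of cofactor, melatonin, monoamine and acetylcholine genes in DMSO vehicle and at both doses, with 1 library per group and exact 95% Poisson intervals as error bars. The high-dose bars of gch1, gch2, aanat1 and moxd1 stand at 149, 321, 232 and 331, above their other bars, while slc6a3 is nearly level over the 3 libraries.

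Around ache, 4 other acetylcholine genes were measured, of which 0 were changed at high dose, against 12.1% of all genes. Besides chat, the vesicular transporter slc18a3a had an FC of 1.29 (1.20 to 1.40), whereas LOC100329781, matched to prima1, the membrane anchor of acetylcholinesterase, had 0.702 (0.533 to 0.919). Of 9 neuromuscular junction genes, 1 fell at high dose, against 4.74% of all genes. It was the acetylcholine receptor subunit chrnd, with 110 normalized counts at high dose, against 229 in DMSO vehicle. Its FC was 0.480 (0.373 to 0.611). The clustering protein gene rapsn was at 0.657 (0.535 to 0.804) and dok7 at 0.648 (0.456 to 0.907), whereas the subunit chrne was at 1.38 (1.13 to 1.68). At low dose, 7 of these 9 genes were above 1, with a median log2 FC of 0.11. At high dose 6 of 9 were below 1, with a median of -0.27. Over all genes, 51.2% were above 1 at low dose and 48.9% at high dose. Summed over 6 skeletal muscle markers, normalized counts were 760185 at high dose and 746237 in DMSO vehicle, with 4 of 6 below 1, from 0.669 for tnnt3a to 1.08 for mylz2. The 2 genes above 1, myhz1 and mylz2, made up 417374 and 235502 of the high-dose sum. The median log2 FC of these markers was -0.20. The part of muscle in the ache value was not tested.

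GABA and glutamate handling genes, 27 of them measured, were split at high dose, with 3 that rose and 3 that fell and a median log2 FC of -0.10. Over all genes 7.40% rose and 4.74% fell. Both glutamine synthetase transcripts rose, glulb with an FC of 2.47 (2.43 to 2.52) and glula with 2.12 (2.09 to 2.16), and so did the glutamine transporter slc38a2 at 2.11 (2.02 to 2.21). Among those that fell were the glutamate transporter slc1a2a, with an FC of 0.414 (0.351 to 0.486), and the GABA transporter slc6a11, with 0.420 (0.247 to 0.687). At low dose 0 of the 27 were changed, against 2.92% of all genes. The vesicular GABA transporter slc32a1, named after its value was seen, had an FC of 0.917 (0.861 to 0.976) at high dose, and gad2 reads over slc32a1 reads were 1.44 times as many as in DMSO vehicle (1.34 to 1.55).

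The listed neuronal markers were lower at high dose than in DMSO vehicle. All 9 measured neuronal markers had an FC below 1 and an interval wholly below 1, between 0.599 for stmn2b (0.545 to 0.657) and 0.976 for snap25a (0.956 to 0.997), and 0 of them passed the threshold. Over all genes 30.6% had such an interval, a share not matched for depth, and 12.1% passed the threshold. Their summed normalized counts were 36074 at high dose and 40600.2 in DMSO vehicle. At low dose 5 of the 9 were above 1 and their sum was 45216. Of 31 transcription factors of transmitter neurons 0 were changed at high dose, against 12.1% of all genes, and their median log2 FC was -0.19. Of these factors 24 were below 1, and 15 of them had an interval wholly below 1. Over all genes 48.9% were above 1, and 30.6% had an interval wholly below 1. The lowest were eng1a at 0.511 (0.296 to 0.846) and tfap2b at 0.511 (0.463 to 0.564). The highest were eng2b at 1.31 (1.12 to 1.54), eng2a at 1.21 (1.06 to 1.39) and fev, a regulator of serotonergic neurons, at 1.19 (0.817 to 1.71). Glial markers were divided, with 5 of 10 above 1 at high dose, from 0.601 for slc1a2b to 2.12 for glula, which is also counted among the GABA and glutamate genes. Liver markers stood apart, as 4 of 6 fell at high dose, against 4.74% of all genes. Their median log2 FC was -1.31, and their sum was 71808 normalized counts at high dose and 139622 in DMSO vehicle. The part of these cell types in the fold changes of the 10 enzyme transcripts was not tested.

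**Figure D5:**
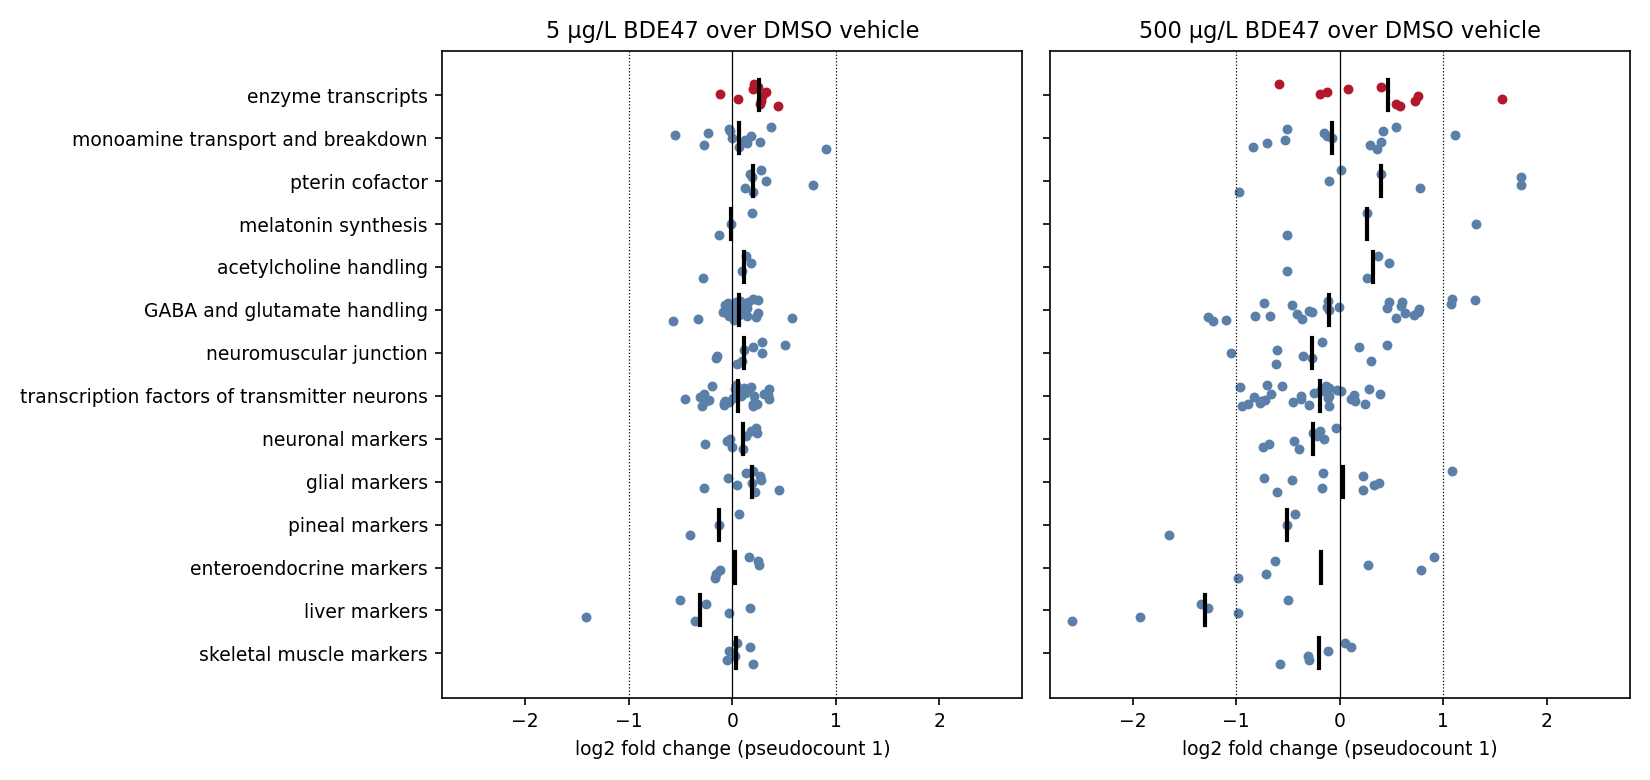
Log2 fold change (x axis, pseudocount 1) of single genes (points) in the 10 enzyme transcripts (red, top) and 13 related or marker lists (blue), at low dose on the left and high dose on the right; thick black bars are list medians and the dotted lines mark a 2-fold difference. The enzyme transcripts have a median of 0.47 at high dose, while the neuronal markers have one of -0.26.

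Only tph1b was changed, so only for it were genes of like pattern sought, among 7660 genes with at least 500 normalized counts in 1 library. Likeness was the Euclidean distance between log2 fold changes at both concentrations, over 3 libraries. The nearest were LOC100003524, matched to retreg1, with an FC of 1.04 at low dose and 2.93 at high dose (distance 0.016), bag3, a co-chaperone gene, with 1.02 and 2.93 (0.022), and kars, for lysyl-tRNA synthetase, with 1.05 and 2.92 (0.032). Within a distance of 0.25 lay 104 genes, so that the 3 named are the nearest of many.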

How the data were processed

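RNA from whole 6 dpf larvae was sequenced once per group. The authors mapped reads to Zv9 and hg19 and normalized them by TMM, and the deposited signal is a normalized count per gene model. The counting tool, annotation and strand handling were not given in the sources used here. Values were whole multiples of their smallest value, which gave the reads and the Clopper-Pearson intervals.

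Entries named only by a clone prefix (11) and RNA other than mRNA were left out. Members matched RefSeq genes (assembly GRCz12tu) by NCBI gene ID, 10 of 10. Planned levels per coding length were not computed, since no coding lengths were used here. Ratios of reads between genes are therefore not corrected for length, and only their differences between libraries are read. The members and lists were chosen with earlier results of these data known, and 2 lists of amino acid breakdown were added after the members' values were seen. List genes were named by rule: up to 3 with the largest and up to 3 with the smallest FC at high dose, among those with at least 50 normalized counts; any other gene is marked as picked with its value known. Some genes that the rule names are not reported here.

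Alternatives of the rule were no minimum, a minimum of 50 and a pseudocount of 5. Scaling was also set to total reads or to a median log ratio of 0 over all genes. Tests were DEGseq's MARS p (rewritten, p threshold 0.05) and edgeR's exact test on the recovered reads. For edgeR the biological coefficient of variation (BCV) was set to 0.2 or 0.4, with Benjamini-Hochberg adjustment. Genes called by either test also had to pass the FC threshold. With both conditions edgeR called 739 or 20 genes at high dose. Scripts were tested on simulated data. Python 3.11.15, numpy 2.4.6, pandas 2.3.3, scipy 1.17.1, matplotlib 3.10.9, R 4.3.3 and edgeR 4.0.16 were used.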

Additional observations from a re-analysis of the deposited data

Results flagged for a closer look

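The fold change of ache lay on opposite sides of 1 at the 2 doses, 1.16 at low dose (5 μg/L) and 0.666 at high dose (500 μg/L), each with a counting interval that left out 1. Each value rests on 1 library per group and the same DMSO vehicle library, and the difference was not tested over replicates.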

How the results depend on the processing

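The fold changes of the 10 enzyme transcripts stayed within their counting intervals under the alternatives of scaling and pseudocount, and none crossed 1. A different minimum leaves the fold change of a gene as it is, so those alternatives could not move these values. Intervals were not recomputed under these settings, so the counts of intervals wholly above or below 1 hold for the deposited scaling only. The 1 changed transcript at high dose, and the 1 between high and low dose, became 0 with edgeR's exact test at an assumed BCV of 0.4. Over all genes, 2155 changed genes at high dose became 739 with an assumed BCV of 0.2 and 20 with 0.4. At low dose 516 became 1622 with no minimum, 126 with a minimum of 50, 287 with a pseudocount of 5, and 5 and 0 with the assumed BCVs. Between high and low dose 2035 became 3123 with no minimum, and 618 and 29 with the assumed BCVs. Each follows by construction from the genes admitted, the damping of low counts or the assumed spread. Medians of the glial and tryptophan breakdown lists at high dose, 0.03 and 0.04, were -0.01 and -0.00267 with scaling to total reads. With no minimum, the median of the pterin list was 0.20 at high dose, against 0.40, and -0.02 between high and low dose, against 0.23, and that of the monoamine list was -0.01 at high dose, against -0.08. No paired analysis was possible because each group had 1 library, and no library could be left out. Depth limited th2 and dbh most, with 86 to 148 reads per library.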

Other observations

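The amino acids used by the hydroxylases are also broken down for other ends, mainly in the liver, and 2 lists of such genes were looked at after the enzyme values were seen. Of 9 measured tryptophan breakdown genes, 1 rose at high dose, against 7.40% of all genes. This gene was tdo2b, for a tryptophan dioxygenase, with 2749 normalized counts in DMSO vehicle, 5323 at low dose and 10401 at high dose. Its fold change was 1.94 at low dose (95% interval 1.85 to 2.02) and 3.78 at high dose (3.64 to 3.94). The paralog tdo2a had 1.33 (1.27 to 1.39) and 1.21 (1.15 to 1.27), and kmo, for the kynurenine monooxygenase further down, had 0.654 (0.590 to 0.723) at high dose.

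Of 5 measured tyrosine breakdown genes, 1 rose at high dose, against 7.40% of all genes. The tyrosine aminotransferase gene tat was the one that rose. It had 23577 normalized counts in DMSO vehicle, 31651 at low dose and 48761 at high dose, with a fold change of 2.07 (2.04 to 2.10) at high dose. The genes of the next steps, hpd at 0.671 (0.653 to 0.690), hgd at 0.792 (0.768 to 0.817) and fah at 0.746 (0.686 to 0.811), were lower at high dose than in DMSO vehicle. Liver markers fell in the same library (4 of 6), and their part in these values was not tested.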
